A study of Canis lupus familiaris with 6 samples.

Results

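Prostaglandin E2 synthesis and reception was followed through 10 genes: PLA2G4A, PTGS1, PTGS2, PTGES, PTGES2, PTGES3, SLCO2A1, HPGD, PTGER2 and PTGER4. Every non-control probe that the array files name for one of these genes was taken, which gave 16 of the 43603 probes on the array and at least 1 probe for each of the 10 genes, out of 34378 gene or transcript names that the files use. The cells were MDCK-pTR GFP-RasV12 cells, a dog kidney epithelial (MDCK) line in which tetracycline switches on GFP-tagged, constitutively active Ras. In the group called alone, these cells were grown by themselves (3 samples). In the group called mixed, they were grown with normal MDCK cells, which carry no RasV12, at 10 MDCK cells to 1 RasV12 cell (3 samples). All 6 cultures were on collagen with 24 h of tetracycline, cells were then sorted by their GFP, and the RNA of each sample was hybridised to its own 1-colour Agilent canine array. The comparison of mixed with alone asks what the presence of normal neighbours does to transcript levels in the transformed cells. The alone group is thus a culture of RasV12 cells, not of untransformed cells, and no sample of sorted normal MDCK cells was analysed here.

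The labels conflict at some points. The source name of mixed replicate 2 gives a ratio of 1:100, where the other mixed samples have 1:10 and the culture description gives 10:1 for all. The extraction text names RasV12 cells that also carry mCherry-β-catenin Δ131, which neither the titles nor the source names mention. Mixed replicate 2 was kept in its group. Values without it are given for the called probes of the 10 genes, and counts of calls for the other genes of the pathway. For marker genes no values without it are given, and without it 9 probes of the whole array were called. The 3 alone arrays were on slide 1 and the 3 mixed arrays on slide 2, so the effect of the slide and that of the culture cannot be told apart. Replicates 1, 2 and 3 had the same position on each slide. The array's 75th percentile of processed signal lay between 592 and 700 intensity units, and 60.8 to 66.4% of probes were well above background by the scanner software's own flag.

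As background, prostaglandin E2 is made in 3 enzymatic steps. Cytosolic phospholipase A2 (PLA2G4A) frees arachidonate from membrane phospholipids, the cyclooxygenases PTGS1 and PTGS2 turn it into prostaglandin H2, and the prostaglandin E synthases PTGES, PTGES2 and PTGES3 convert that into prostaglandin E2. The transporter SLCO2A1 takes the lipid up into cells and HPGD oxidises it to an inactive product. Outside the cell, prostaglandin E2 acts on G protein-coupled receptors, of which EP2 (PTGER2) and EP4 (PTGER4) raise cyclic AMP. In kidney epithelium this lipid is known for its control of salt and water transport, and PTGS2 is known as a gene that growth factors and Ras signalling induce.

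The probes on which the results turn are shown first, because what was measured for each gene was the labelled RNA that bound to such a 60-base sequence. Probes are numbered by the base of the transcript at which they start, as the array files give it, and positions are those of the files in the dog build canFam3. The files do not say in which exon a probe lies. For PTGER4, the probe starting at base 2974 lies on the minus strand at chr4:68663425-68663484. For PTGS2, the probe starting at base 3316 lies on the minus strand at chr7:19668185-19668244. The first 30 bases of each are printed, since each is the only probe of its gene and stands for all that was measured of it.
PTGER4: gaattgcttggttgtaattaaattctgagc
PTGS2: atgccgactgaattcggagtataatatatg

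PTGES and PTGES2 had a pair of probes each, and both pairs overlapped. The PTGES probes starting at bases 758 and 773 (plus strand, chr9:54082160-54082219 and chr9:54082175-54082234) shared 45 bases, of which the first 30 are printed in capitals. The PTGES2 probes starting at bases 675 and 681 (plus strand, chr9:55347078-55347137 and chr9:55347084-55347143) shared 54 bases, which are likewise set in capitals. These pairs therefore measured nearly the same stretch of RNA and do not count as separate evidence.
PTGES, shared part: TAGAAAATCCTTCCACTCAAATACCAGAGC
PTGES2 at 675: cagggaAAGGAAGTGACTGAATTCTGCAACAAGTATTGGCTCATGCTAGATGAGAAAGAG
PTGES2 at 681: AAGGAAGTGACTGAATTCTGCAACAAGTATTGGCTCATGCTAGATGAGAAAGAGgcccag

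For PLA2G4A, the probes starting at bases 1178 and 2220 did not overlap. The first spans an intron, since its 60 bases lie on the plus strand over 6172 bases of chr7:19908905-19915076, and it is printed whole for that reason.
PLA2G4A at 1178: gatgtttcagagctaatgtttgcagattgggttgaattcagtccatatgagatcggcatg

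Of the 16 probes, 14 probes of 9 genes were well above background on all 6 arrays and were tested. PTGER4, the EP4 receptor, fell 2.05-fold in mixed culture, and 1 of the 2 PTGES2 probes rose 1.23-fold. No other probe passed an adjusted p of 0.05 in the limma fit over all 26534 tested probes. The 2 called probes were 14.3% of the 14 tested, beside 11.2% of all tested probes, a share near the background. The number of called probes was 0 without any 1 of alone replicate 2, alone replicate 3, mixed replicate 2 and mixed replicate 3, and 4 without mixed replicate 1. By direction, 5.5% of all tested probes were called higher and 5.72% lower in mixed culture. The alone and mixed values were fully separate at 7 of the 14 probes, 4 of them higher and 3 lower in mixed culture, beside 37.2% of all tested probes. A difference of at least 2-fold was seen at 1 of the 14 probes (PTGER4), beside 1.58% of all tested probes. Over the 14 probes the median log2 difference (mixed minus alone) was -0.045, and -0.0037 over all tested probes. The median size of the difference was 0.29 on the log2 scale, against 0.17 over all tested probes.

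**Figure D1:**
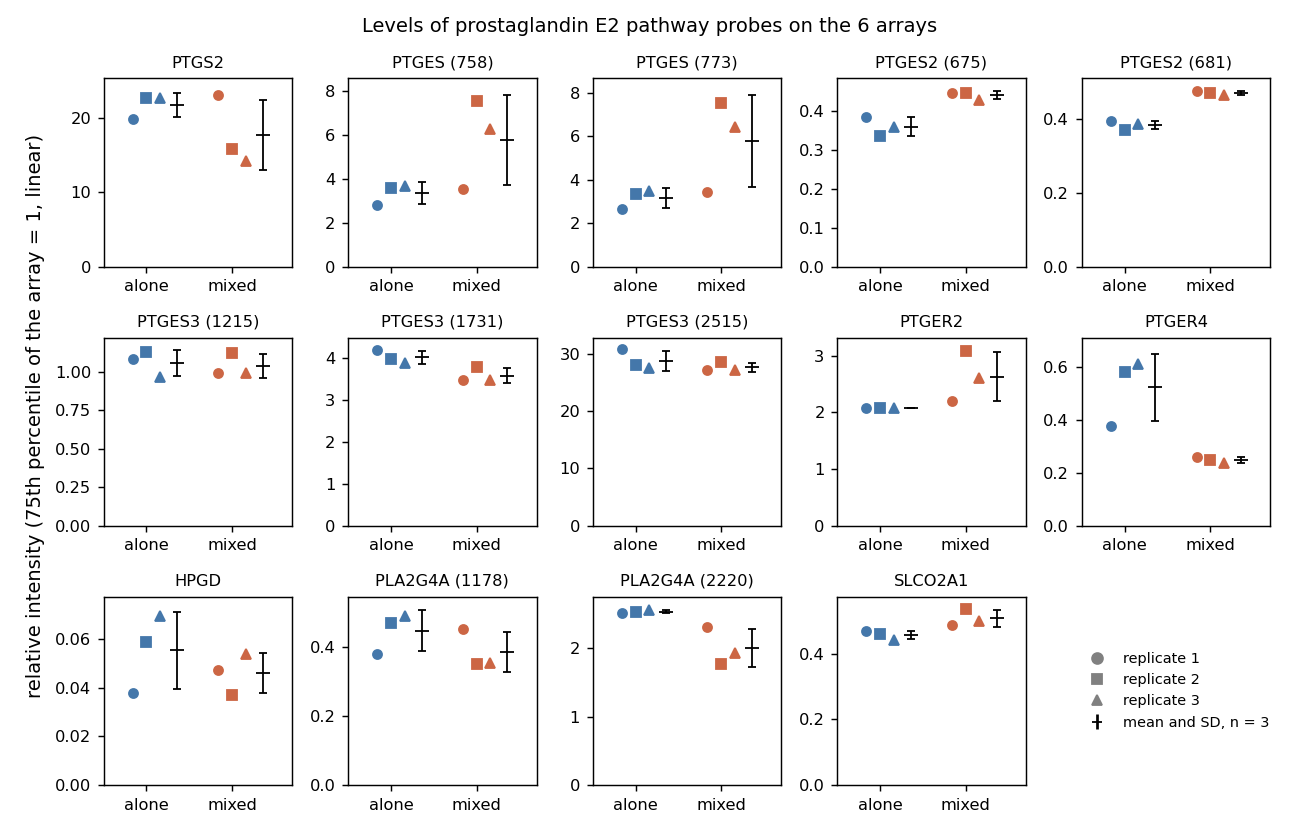
Relative intensity of the 14 tested probes on each of the 6 arrays, on a linear scale where the array's own 75th percentile is 1. Symbols mark the replicate number, and the bars give the mean and SD of the 3 arrays of a group. The 3 mixed values of PTGER4 (0.238 to 0.261) lie below the 3 alone values (0.375 to 0.610), while mixed replicate 1 of PTGES (3.54 at base 758) lies among the alone values.

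Below, a level is a relative intensity, the processed signal divided by the array's 75th percentile. Levels of a gene were compared between arrays for one probe and not between probes. The summed levels of marker lists add different probes and weigh the brightest most. The arrays measured RNA of pooled sorted cells, so fewer cells expressing a gene and less RNA per cell cannot be told apart.

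EP4, a receptor that raises cyclic AMP, showed the largest difference among the 10 genes. The PTGER4 level was 0.375, 0.578 and 0.610 in alone replicates 1, 2 and 3, and 0.261, 0.247 and 0.238 in mixed replicates 1, 2 and 3. All 3 mixed arrays were below all 3 alone arrays, the mixed arrays lay close together, and alone replicate 1 was the lowest of its group. The log2 difference was -1.04 with a standard error of 0.19 (95% interval -1.48 to -0.59, adjusted p = 0.0247 by limma), which is 2.05-fold lower with an interval of 1.51 to 2.79. An exact two-sided permutation test of this probe alone gave p = 0.1, the smallest value that 3 arrays against 3 can give. Over 15 alternative ways of processing the difference lay between -1.29 and -0.79. Of these, the filter settings, the methods' t-test and the replicate block change only the p and leave the difference itself as it is. The call held in 8 of the 15, with adjusted p from 0.00358 to 0.104. It was lost without alone replicate 2 (adjusted p = 0.0982), alone replicate 3 (0.0944), mixed replicate 1 (0.0548), mixed replicate 2 (0.0963) or mixed replicate 3 (0.104), and also with no filter on dim probes (0.0894) and with the methods' t-test (0.0869). Without alone replicate 1 the difference was -1.26 (adjusted p = 0.00358). Without mixed replicate 2, the sample with the divergent ratio in its label, the difference was -1.03.

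EP2, the other cyclic AMP-raising receptor among the 10 genes, had the opposite sign. The PTGER2 level (base 2161, plus strand, chr8:28536574-28536633) was 2.08 in each of the 3 alone arrays and 2.21, 3.08 and 2.60 in mixed replicates 1, 2 and 3. The mixed arrays were all above the alone arrays, replicate 1 only slightly. The log2 difference was 0.33 (SE 0.12, 95% interval 0.03 to 0.62), a 1.25-fold difference that did not pass the threshold (adjusted p = 0.133). Without mixed replicate 2 it was 0.21 (adjusted p = 0.295), and with scaling to the spike-in controls 0.17 (0.513).

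**Figure D2:**
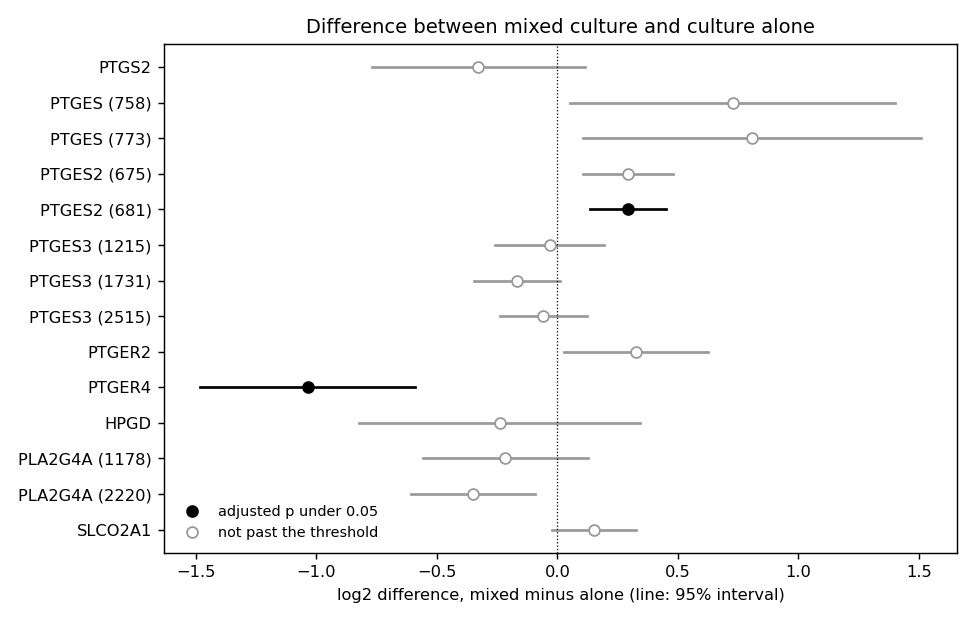
Log2 difference between mixed and alone for each tested probe, with its 95% interval from the limma fit. Filled points passed an adjusted p of 0.05, which holds for PTGER4 at -1.04 and for the PTGES2 probe at base 681 at 0.29, and open points did not.

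Of the terminal synthases, PTGES is the inducible membrane enzyme that works with PTGS2. At base 758 its level was 2.79, 3.60 and 3.68 in alone replicates 1, 2 and 3, and 3.54, 7.55 and 6.28 in mixed replicates 1, 2 and 3. At base 773 the levels were 2.64, 3.36 and 3.47 in the alone arrays and 3.43, 7.53 and 6.42 in the mixed arrays. Mixed replicates 2 and 3 stood well above every other array, and mixed replicate 1 lay within the range of the alone arrays. The log2 difference was 0.73 (SE 0.28) at base 758 and 0.81 (SE 0.29, 95% interval 0.11 to 1.51) at base 773, or 1.66-fold and 1.75-fold, and neither passed the threshold (adjusted p = 0.136 and 0.118). With the replicate number as a block, the probe at base 773 passed it (adjusted p = 0.0495) and the probe at base 758 did not (0.0517). Without mixed replicate 1 both probes passed, at log2 differences of 1.05 (adjusted p = 0.0322) and 1.15 (0.0252). Without mixed replicate 2, the sample with the divergent ratio in its label, the differences were 0.50 (adjusted p = 0.323) and 0.58 (0.288), and with scaling to the spike-in controls they were 0.57 and 0.65. The spread within the mixed group was wide, with levels of 5.79 ± 2.1 (SD, n = 3) at base 773 against 3.16 ± 0.45 (SD, n = 3) alone.

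PTGES2, a second membrane-associated prostaglandin E synthase, differed by a smaller amount with a much smaller spread. At base 681 its level was 0.395, 0.372 and 0.387 in alone replicates 1, 2 and 3, and 0.477, 0.471 and 0.466 in mixed replicates 1, 2 and 3. At base 675 the levels were 0.385, 0.336 and 0.358 alone and 0.446, 0.445 and 0.428 mixed. In both probes all 3 mixed arrays were above all 3 alone arrays. The log2 difference was 0.29 at either probe, with a standard error of 0.07 at base 681 (adjusted p = 0.0397) and 0.08 at base 675 (adjusted p = 0.0595), so that the 54 shared bases fell on both sides of the threshold. With the replicate number as a block the probe at base 681 missed it as well (adjusted p = 0.0598). The call at base 681 held in 7 of the 15 alternatives, and scaling to the spike-in controls lowered the difference to 0.13 (adjusted p = 0.436). It was also lost with no filter on dim probes and without any 1 of alone replicate 2, alone replicate 3 and the 3 mixed replicates, with differences from 0.27 to 0.30. Without mixed replicate 2 the difference was 0.29 (adjusted p = 0.131).

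PTGES3, known both as the cytosolic prostaglandin E synthase and as p23, a co-chaperone of HSP90, was read by 3 probes that do not overlap. The probe starting at base 1215 spans an intron (minus strand, chr10:890052-890925), and its log2 difference was -0.03 (95% interval -0.26 to 0.19). At base 1731 (chr10:885728-885787) the level was 4.20, 3.98 and 3.89 alone and 3.48, 3.79 and 3.48 mixed. Here the groups did not overlap, but the difference of -0.17 (95% interval -0.35 to 0.01) did not pass the threshold (adjusted p = 0.182), and with scaling to the spike-in controls it was -0.33. At base 2515 (chr10:884944-885003) the difference was -0.06 (95% interval -0.24 to 0.12). None of the 3 intervals included a change of 2-fold.

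Of the cyclooxygenases, PTGS1, known as the constitutive form, was not well above background on any of the 6 arrays at either of its probes (chr9:60195963-60196022 and chr9:60195350-60195409, minus strand). Its signals were 3.01 to 8.19 intensity units at base 1788 and 2.11 to 3.28 at base 2401, where the lowest signal of a probe well above background was between 9.15 and 14.6 on the different arrays. No fold change is given for PTGS1.

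PTGS2, the inducible cyclooxygenase, was measured well above background on every array. Its level was 19.8, 22.7 and 22.6 in alone replicates 1, 2 and 3, and 23.0, 15.8 and 14.1 in mixed replicates 1, 2 and 3. Mixed replicate 1 was the highest of all 6 arrays and mixed replicates 2 and 3 were the lowest. The log2 difference was -0.33 (SE 0.18, 95% interval -0.77 to 0.11) and did not pass the threshold (adjusted p = 0.274). Without mixed replicate 1 it was -0.54 and passed (adjusted p = 0.0451). Without mixed replicate 3 it was -0.18 (adjusted p = 0.580).

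PLA2G4A, which supplies arachidonate, was lower in mixed culture at both probes without passing the threshold. At base 2220 (plus strand, chr7:19946185-19946244) its level was 2.52, 2.53 and 2.56 alone and 2.31, 1.77 and 1.93 mixed. The groups did not overlap there, and mixed replicate 1 was the closest to the alone arrays. The log2 difference was -0.35 (SE 0.11, 95% interval -0.61 to -0.09, adjusted p = 0.0832), and without mixed replicate 1 it was -0.46 and passed (adjusted p = 0.0370). At base 1178, across the intron, the level was 0.380, 0.471 and 0.491 alone and 0.452, 0.351 and 0.354 mixed. These groups overlapped, with mixed replicate 1 among the alone arrays, and the difference was -0.22 (95% interval -0.56 to 0.13, adjusted p = 0.348), with -0.45 to -0.13 over the alternatives.

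PLA2G4A and PTGS2 also lie next to each other in the genome. Their nearest probes are 240661 bases apart on chromosome 7 of canFam3, and the RefSeq table of the dog assembly UU_Cfam_GSD_1.0 lists 0 protein-coding genes and 2 other genes between them. The probes of PTGS1, PTGES and PTGES2 are all on chromosome 9.

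SLCO2A1, the uptake transporter, had levels of 0.468, 0.461 and 0.443 alone and 0.488, 0.537 and 0.499 mixed (base 1845, minus strand, chr23:30797986-30798045). The groups did not overlap, but the log2 difference of 0.15 (95% interval -0.02 to 0.32) did not pass the threshold (adjusted p = 0.210), and with scaling to the spike-in controls it was -0.010. HPGD, the dehydrogenase that inactivates prostaglandin E2, was read by 1 probe (base 717, minus strand, chr25:24964932-24964991). Its levels were 0.0380, 0.0587 and 0.0694 alone and 0.0471, 0.0372 and 0.0539 mixed. The groups overlapped, the difference was -0.24 (95% interval -0.82 to 0.34, adjusted p = 0.545), and with normexp background correction it was -0.012.

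Because deviations of same-numbered samples correlated, most clearly in replicate 1, the difference was also taken within each number. In 9 of the 14 probes it had the same sign in all 3 numbers, with the overlapping probes of PTGES and PTGES2 counted separately. The share of all tested probes with 1 sign throughout was not counted, so the 9 is not read as a result about the 10 genes. For PTGER4 the mixed array was lower by a log2 difference of -0.53 in replicate 1, -1.22 in replicate 2 and -1.36 in replicate 3. For PTGES at base 773 the differences were 0.37, 1.17 and 0.89, and for PTGER2 they were 0.09, 0.56 and 0.33. In 3 probes, likewise without a counted share of all tested probes, replicate 1 had the opposite sign to replicates 2 and 3. These were PTGS2 (0.21 against -0.52 and -0.68), PLA2G4A at base 1178 (0.25 against -0.43 and -0.47) and HPGD (0.31 against -0.66 and -0.36). Replicate 1 had the smallest difference of the 3 numbers in 10 of the 14 probes, beside 46.4% of all tested probes.

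**Figure D3:**
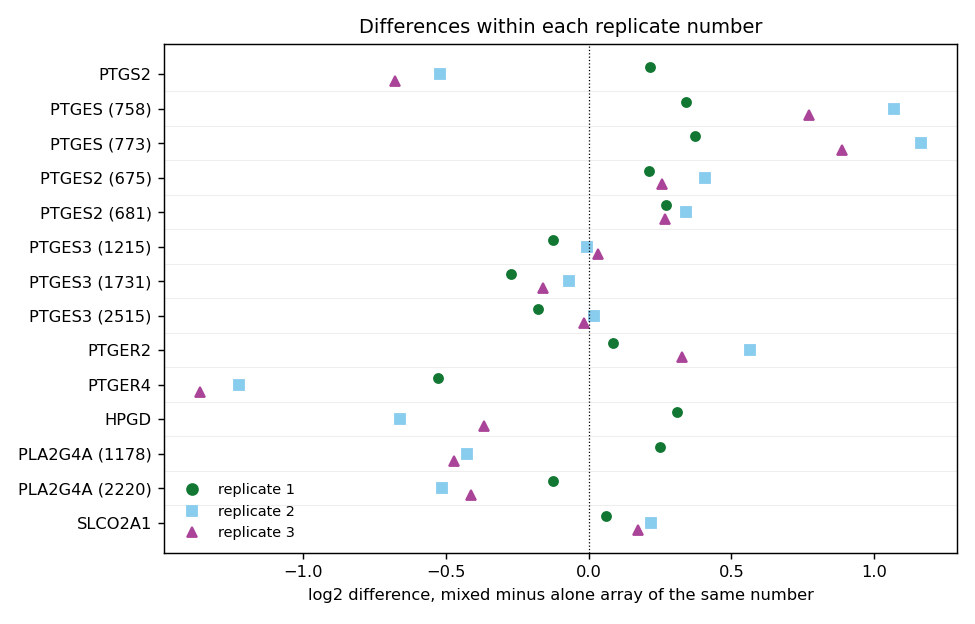
Log2 difference between the mixed and the alone array of the same replicate number, for each of the 14 tested probes. Circles (replicate 1) lie on the other side of 0 from squares and triangles (replicates 2 and 3) for PTGS2, HPGD and PLA2G4A at base 1178, and nearest to 0 of the 3 for PTGER4, PTGES and PTGER2.

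In a fit without replicate 1 of both groups, an alternative chosen after seeing the data, 9 of the 14 probes were called, 5 higher and 4 lower, both main calls among them. In that fit 33.1% of all 27919 tested probes were called. PTGER4 was then at -1.29 (adjusted p = 0.00414), PTGES at 0.92 and 1.03, PTGES2 at 0.33 and 0.30, PTGER2 at 0.45, PTGS2 at -0.60 and PLA2G4A at -0.45 and -0.46. The lowest adjusted p of the other probes, which are those of PTGES3, HPGD and SLCO2A1, was 0.0948.

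**Figure D4:**
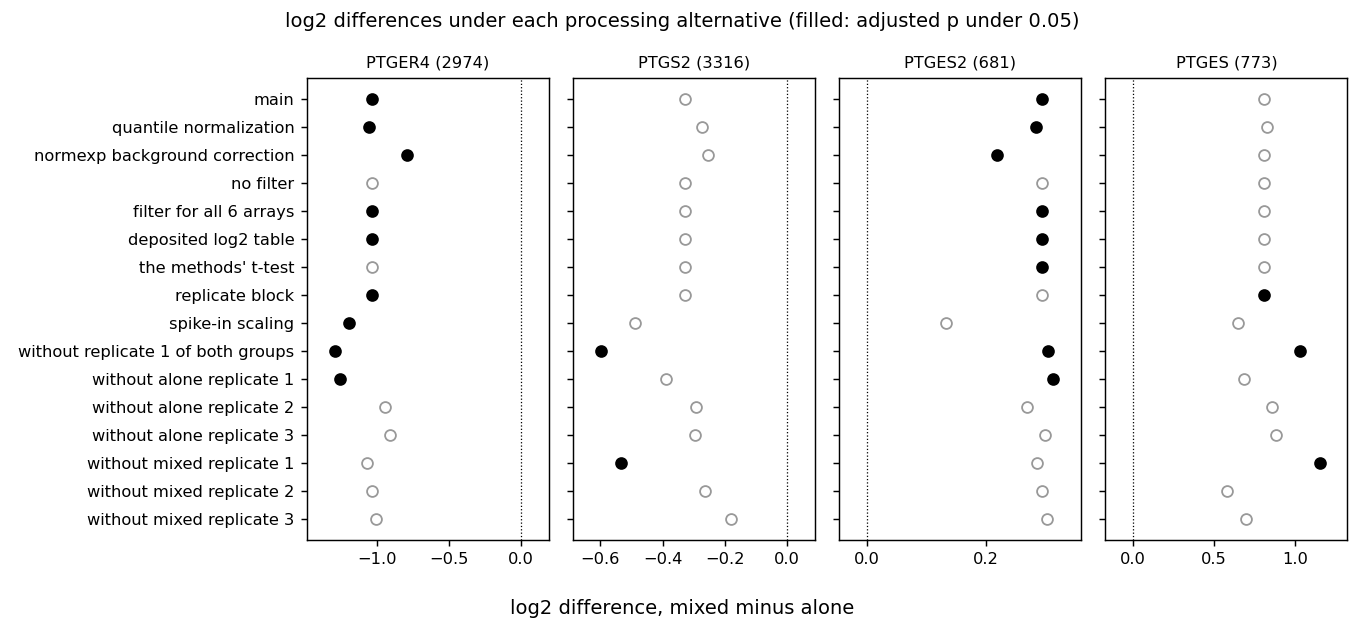
Log2 difference (mixed minus alone) of 1 probe each of PTGER4, PTGS2, PTGES2 and PTGES under the main processing and each alternative, with filled points for an adjusted p under 0.05. The points of PTGER4 lie between -1.29 and -0.79, and the filled points for PTGS2 appear in the rows that leave out mixed replicate 1, alone or together with alone replicate 1.

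The other genes of the pathway were described from 6 lists, which held 126 genes. The array named 101 of them, 76 were tested, and 25 were not well above background on all arrays of either group. Of the 76, 5 were called higher and 2 lower in mixed culture, which is 9.21% beside 11.2% of all tested probes. The balance between higher and lower depended on the scaling and the background correction, with 0 higher and 1 lower under spike-in scaling and 5 higher and 5 lower under normexp. Each gene was counted at 1 probe, the tested one with the highest mean level. Other probes are given where they were called, and for ADCY6 also where not called. The remaining other probes are not given, although some had the opposite sign to the counted probe of their gene. The median log2 difference of the 76 genes was 0.11. The number called was 0 without any 1 of alone replicate 2, alone replicate 3, mixed replicate 2 and mixed replicate 3, and 17 without alone replicate 1. By list, the called share was 21.4% for arachidonate supply, 10.0% for transport and inactivation, 8.70% for cyclic AMP signalling and 6.25% for regulators of PTGS2. Counts at an unadjusted p under 0.05 are given below without a background share, which was not counted. That share was far above 5%, because an unadjusted limma p of 0.0494 (DUSP5) had an adjusted p of 0.158. The unadjusted counts are therefore not read as results about the pathway lists or the marker lists.

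Among genes that supply arachidonate, 14 were tested, 1 rose and 2 fell, with a median of -0.08. PLA2G3, a secreted phospholipase A2, had levels of 0.386, 0.364 and 0.385 alone and 0.277, 0.218 and 0.209 mixed, a log2 difference of -0.70 (SE 0.12, adjusted p = 0.0227). ANXA1 (annexin A1), known as an inhibitor of phospholipase A2, had levels of 235, 246 and 237 alone and 194, 194 and 187 mixed, a difference of -0.32 (adjusted p = 0.0337, or 0.0529 with the replicate block). Its other probes were at -0.49 and -0.53 and were also called. FADS2, a fatty acid desaturase, was not called at its counted probe (-0.31), while 1 of its 2 other probes was called (-0.48). FAAH, which hydrolyses fatty acid amides such as anandamide, was 1.35-fold higher (log2 0.43, adjusted p = 0.0392), with levels of 1.13 to 1.33 alone and 1.53 to 1.78 mixed. None of these groups overlapped.

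Among the 11 other prostanoid synthases and receptors on the array, 6 were tested, 0 were called by limma or by the methods' t-test, 2 had an unadjusted limma p under 0.05, both higher in mixed culture, and the median was 0.15. With the replicate number as a block, 2 genes passed in opposite directions. TBXAS1, the thromboxane synthase, was then called at 0.58 (adjusted p = 0.0407, against 0.131 without the block), and PTGIR, the prostacyclin receptor, at -0.51 (0.0428, against 0.173). EP1 (PTGER1), a receptor that signals through calcium, had levels of 0.692 to 0.851 alone and 0.813 to 0.896 mixed, a difference of 0.15 (adjusted p = 0.358). The probe of EP3 (PTGER3), which lowers cyclic AMP, was not well above background on any array.

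Among genes of transport and inactivation, 10 were tested, 1 rose and 0 fell by limma, with a median of 0.22, and at an unadjusted p under 0.05 these counts were 3 and 0. SLCO4A1, an organic anion transporter, had levels of 0.118 to 0.150 alone and 0.174 to 0.218 mixed, a log2 difference of 0.59 (SE 0.13, adjusted p = 0.0382). ABCC4, an exporter of prostaglandin E2, was at 0.22 (adjusted p = 0.252). PTGR1, a reductase that acts on the product of HPGD, had levels of 23.8 to 25.5 alone and 27.1 to 29.5 mixed, a difference of 0.19 without overlap that did not pass the threshold (adjusted p = 0.127). PTGR2, a reductase of the same kind, was not well above background on any array.

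Downstream of EP2 and EP4, 23 genes of cyclic AMP signalling were tested, 2 rose and 0 fell by limma, with a median of -0.021, and at an unadjusted p under 0.05 these counts were 3 and 5. NR4A1, a nuclear receptor and immediate early gene, had levels of 0.195, 0.240 and 0.218 alone and 0.398, 0.399 and 0.366 mixed, which is 1.78-fold higher (log2 0.83, SE 0.10, adjusted p = 0.0135). ADCY6, an adenylyl cyclase, was at 0.35 (adjusted p = 0.0468, or 0.0730 with the replicate block), and its other probe was at 0.09 and was not called. ADCY5, another adenylyl cyclase, was not called at its counted probe (0.082) and was called at its other probe (0.60). PDE4B, a phosphodiesterase that degrades cyclic AMP, was at -0.57 and passed only with the replicate block (adjusted p = 0.0395, against 0.139). Among 16 tested regulators of PTGS2 transcription and mRNA decay, 1 rose and 0 fell by limma, with a median of 0.11, and at an unadjusted p under 0.05 these counts were 3 and 2. The called gene was DUSP1, a phosphatase of MAP kinases, with levels of 1.05 to 1.19 alone and 1.37 to 1.44 mixed (log2 0.36, adjusted p = 0.0374). The count for this list depended on the probe. MAPKAPK2, a kinase that acts on mRNA stability, was not called at its counted probe (-0.16, adjusted p = 0.267), while its 3 other probes were called lower, at -0.48, -0.61 and -0.69. NFATC1, a transcription factor, was at 0.25 at its counted probe and was called at its other probe (0.40). In the lipoxygenase pathway, which uses the same arachidonate for leukotrienes, 7 genes were tested and 0 called by limma or by the methods' t-test, with a median of 0.10, and 2 had an unadjusted limma p under 0.05.

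**Figure D5:**
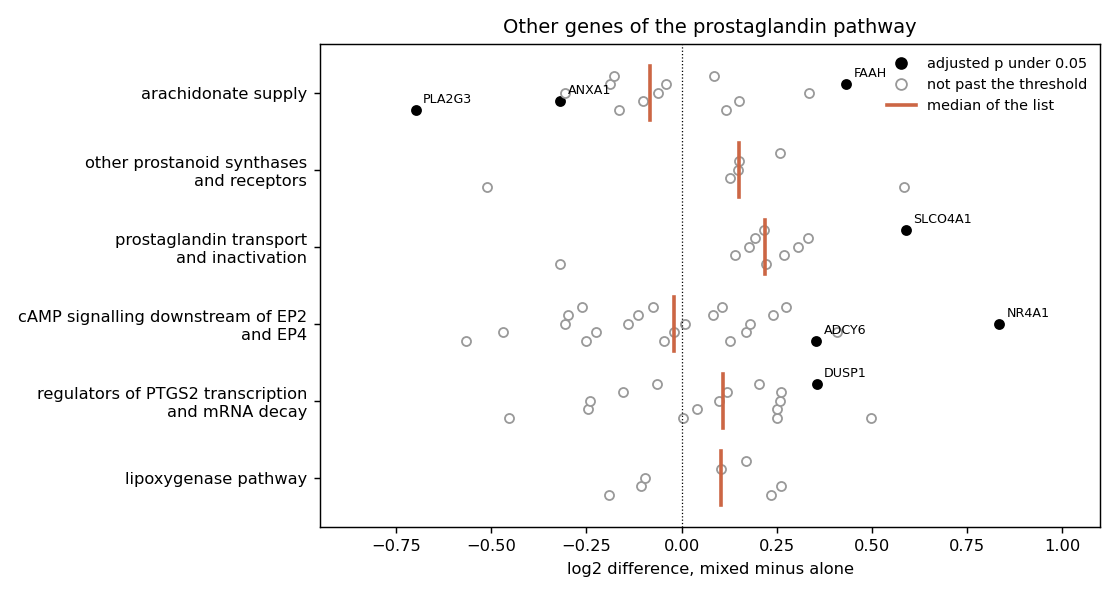
Log2 difference (mixed minus alone) of the 76 tested genes of the 6 pathway lists, 1 point per gene, with the median of each list as a vertical bar. The 7 filled and named points passed an adjusted p of 0.05, and they run from -0.70 (PLA2G3) to 0.83 (NR4A1).

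Markers were read in the same way. All 8 epithelial markers on the array were tested, CLDN3, a tight junction claudin, was higher in mixed culture (log2 0.76, adjusted p = 0.0142), and 0 were lower by limma. The called share of these markers was 12.5%, beside 11.2% of all tested probes. At an unadjusted p under 0.05, 4 were higher and 1 was lower, the latter being CDH1 (E-cadherin) at -0.37 (adjusted p = 0.0648) with other probes at -0.36 and -0.16. CLDN7, another claudin, was at -0.52 (adjusted p = 0.218), and CLDN4 at 0.72 was called only with the replicate block (adjusted p = 0.0315). OCLN (occludin) was not called at its counted probe (0.33, adjusted p = 0.0758) and was called at its other probe (0.41), so the called share depended on the probe. The summed level of the markers, most of it from KRT18 and EPCAM, was 491 to 569 alone and 512 to 583 mixed. Defining genes of other cell types, COL3A1 and PDGFRA for fibroblasts, PTPRC for leukocytes and CDH5 and TEK for endothelium, were not well above background on any array. Summed levels were 1.17 to 1.23 alone and 1.30 to 1.40 mixed for the 4 tested of 7 fibroblast genes, 1.81 to 1.99 and 2.01 to 2.12 for the 4 tested of 7 leukocyte genes, and 5.02 to 7.29 and 5.47 to 7.37 for the 3 tested of 5 endothelial genes. In each of these lists 0 genes were called by limma or by the methods' t-test, and 2 fibroblast genes, both higher in mixed culture, had an unadjusted limma p under 0.05.

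Output genes of Ras-MAPK signalling and immediate early and stress genes were counted as well. Of 12 tested output genes of Ras-MAPK signalling, 2 were lower in mixed culture, EPHA2 (log2 -0.71) and FOSL1 (-0.52), 0 were higher by limma (at an unadjusted p under 0.05, 4 were lower and 1 higher), and the called share was 16.7% beside 11.2% of all tested probes. With the replicate block SPRED1 (0.39, adjusted p = 0.0491) and IER3 (-0.49, adjusted p = 0.0377) passed too, in opposite directions. The summed level was 113 to 116 alone and 94.2 to 108 mixed, most of it from DUSP6, which had levels of 86.9 to 92.1 alone and 71.3 to 86.5 mixed and was not called (adjusted p = 0.205). Of 17 tested immediate early and stress genes, FOS (0.67), JUND (0.46), EGR1 (0.77) and ATF3 (0.74) were higher and HSPA5 (-0.49) lower. The called share was 29.4%, beside 11.2% of all tested probes, and the summed level was 278 to 291 alone and 306 to 328 mixed. The part in these results of the Ras content of the sorted cells, of the sorting and handling, or of normal cells among the sorted ones was not tested.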

How the data were processed

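Per the labels and the study's methods, RNA of sorted GFP-positive cells was labelled in 1 colour and hybridised to the Agilent Canine V2 4x44K array. The authors deposited scanner output with an intensity per spot, namely a background-corrected processed signal from the Feature Extraction software, besides raw means and local backgrounds. A deposited second file holds log2 values for 26529 probes, each column of which equals, within 0.01 for nearly every probe, the log2 processed signal minus a constant close to the 75th percentile of that array. The tool and filter behind it are not given in the sources used here.

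The 6 arrays were grouped by the labels as 3 alone and 3 mixed. Control spots and 6 to 12 flagged spots per array were left out, repeat spots were averaged, and the 75th percentile of the array was subtracted on the log2 scale, with no pseudocount. Testing required a probe to be well above background on every array of the alone group, the mixed group or both. Mixed was compared with alone by limma 3.58.1 in R 4.3.3 (lmFit and eBayes, two-sided), with Benjamini-Hochberg adjustment over 26534 probes and a threshold of 0.05. No p was adjusted over the members alone. Pathway and marker genes used the tested probe with the highest mean. All members were named at every probe, with the pathway genes that were called and PTGER1, PTGER3, ABCC4, PTGR1 and PTGR2 whatever their values. FADS2, TBXAS1, PTGIR, ADCY5, PDE4B, MAPKAPK2 and NFATC1, of the pathway lists, fall outside that rule and were named after their values were seen, because another probe or the replicate block gave another call. The members and lists were chosen with earlier results of these data known.

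Replicate numbers come from the titles. The deviations from the group means of same-numbered samples correlated over 26528 probes at 0.35, 0.16 and 0.30, all above 0.1. On that ground the fit with the replicate number as a block was run beside the main one. Between different numbers the correlations ran from -0.33 to 0.24. Alone replicate 2 correlated more with mixed replicate 3 (0.24) than with mixed replicate 2 (0.16), so only replicate 1 stood apart. Same-numbered samples also shared a slide position, which cannot be told apart from pairing. The labels do not say that replicates were separate cultures, so p-values measure the spread between these samples, which may be technical. The number of arrays limits the precision. In simulated data with 200 changed probes among 26534, the same fit called 74% of those made 2-fold, 94% of those made 4-fold and 9 unchanged probes. The simulated noise was independent between probes and arrays, without the shared deviations described above. These rates show that the fit runs as intended and do not carry over to the real arrays. Python 3.11.15 with pandas 2.3.3, numpy 2.4.6 and matplotlib 3.10.9 made the summaries and plots.

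Alternatives were quantile normalization, normexp background correction with an offset of 50, no filter and a filter over all 6 arrays, the log2 values as deposited, the methods' t-test with Benjamini-Hochberg adjustment, the replicate block, scaling to the spike-in controls, a 2-fold threshold, leaving out each array, and leaving out replicate 1 of both groups.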

Additional observations from a re-analysis of the deposited data

How the results depend on the processing

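Calls moved with the set of probes tested, the test and the arrays used, and the causes were not tested. Over all probes, member probes and pathway genes the main counts were 2978, 2 and 7. With no filter they were 12, 0 and 0, with the methods' t-test 828, 1 and 2, with spike-in scaling 995, 1 and 1, with a 2-fold threshold 300, 1 and 0, and without replicate 1 of both groups, chosen after seeing the data, 9247, 9 and 31. Spike-in scaling shifted the median of all probes by -0.16 on the log2 scale and left 301 higher and 694 lower calls, against 1459 and 1519. Leaving out single arrays gave 7 to 7335 calls over all probes, 0 to 4 member probes and 0 to 17 pathway genes. Without alone replicate 2, alone replicate 3, mixed replicate 2 or mixed replicate 3 the member count was 0, and the counts over all probes were 24, 7, 9 and 12. Without mixed replicate 1 the member count was 4, and without alone replicate 1 the count over all probes was 7335. The replicate block gave 2825, 2 and 8, the member calls then being PTGES at base 773 (adjusted p = 0.0495) and PTGER4 (0.0414) in place of PTGES2 at base 681 (0.0598) and PTGER4. Among pathway genes the block lost ANXA1 (0.0529) and ADCY6 (0.0730) and gained TBXAS1 (0.0407, higher), PTGIR (0.0428, lower) and PDE4B (0.0395, lower). Quantile normalization, normexp, the filter over all 6 arrays and the deposited table left each count within 1.5 times. The alternatives were not independent, since the deposited values are nearly those of the main fit and overlapping probes were counted separately. Of 210 values of single member probes under the alternatives, 178 kept their direction and side of the threshold, 15 lost the call, 13 gained it and 4 changed sign, although the filters, the t-test and the block cannot change a sign. These 4 were PTGES3 at base 1215 (0.014 without replicate 1 of both groups, and -0.097 to 0.015 when single arrays were left out, above 0 without alone replicate 2), PTGES3 at base 2515 (0.0021 without replicate 1 of both groups) and SLCO2A1 (-0.010 with spike-in scaling), none of which was called in the main fit. Slide as a block was not run because each slide held 1 group. Probes near background, such as HPGD, are limited by signal, and PTGS1 by having none well above background.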
